A study of Mus musculus with 6 samples.

Results

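Cytosolic ribosomal proteins were followed in the cochlea, where sound is turned into nerve signals, of ageing mice. The members were the genes whose probe sets, the groups of short probes that each report 1 signal on an Affymetrix array, were annotated with a single symbol of the form Rpl, Rps or Rplp followed by a digit, leaving out the S6 kinases (Rps6k) and pseudogenes marked -ps. The rule found 47 genes of 12393 with a single symbol, on 98 probe sets of 22626. Of these 47 genes, 21 carried a small subunit symbol, 24 a large subunit symbol and 2 a symbol of the stalk. Each gene was followed by its probe set with the highest mean signal over the 6 arrays. The mean signal of 45 members was above 593.6, the 40th percentile of all probe sets, and these were tested. The other 2, Rpl39l and Rps4l, lay below it and are given as values. Another 102 probe sets listed a ribosomal protein together with other genes and were left out of the members by the single-symbol rule. Rplp1, Rpl3, Rpl5 and Rpl10 were not analysed here.

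Cochleae of male mice of the inbred strain DBA/2J, which goes deaf young, were compared at 36 weeks (n = 3 arrays) and at 7 weeks (n = 3 arrays). All 6 samples shared strain, sex, diet and housing, and no agent or induced mutation is named for either age. The labels tie age to age-related hearing loss but give no hearing measurement. The series' design text says that there were no replicates, although each age has 3 samples, and the labels do not say whether 1 or several animals went into a sample or whether the 3 samples of an age came from separate animals. Every SD, SE and p-value here therefore measures only the spread between these samples, which may be technical.

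Ribosomes translate messenger RNA into protein. The small subunit reads the message, the large subunit joins the amino acids, and a stalk of acidic proteins on the large subunit recruits the translation factors that drive each step. Each ribosome holds most of its proteins in a single copy, and many of their messages begin with a C followed by a run of pyrimidines at which their translation is controlled by the TOR kinase. A few have paralogs used in particular tissues, such as Rpl3l in striated muscle.

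The arrays of the 2 ages differed widely outside the ribosome. Signals were deposited on a linear scale on which the arrays shared nearly the same trimmed mean (1489.8 to 1492.5, with 2% of probe sets left out at each end), so every level below is relative to the other transcripts on its array. The array medians were nevertheless 844.0 to 859.4 at 36 weeks and 766.3 to 800.4 at 7 weeks. All 13 neutrophil markers rose at 36 weeks, with a summed signal of 702377 to 746789 at 36 weeks against 50054 to 55415 at 7 weeks. All 6 markers of mucous epithelium (447250 to 483815 at 36 weeks, 68914 to 70200 at 7 weeks) and all 6 of cerebellum (39562 to 42457 at 36 weeks, 9479 to 9711 at 7 weeks) rose, as did the 5 tested of 6 pituitary markers (76649 to 82055 at 36 weeks, 6202 to 7136 at 7 weeks). Of the B and plasma cell markers 3 of 6 rose (26706 to 29010 at 36 weeks, 4297 to 5602 at 7 weeks), and of the proliferation genes 6 of 7 (11350 to 12544 at 36 weeks, 6021 to 6807 at 7 weeks). All 12 skeletal muscle markers fell (115588 to 121909 at 36 weeks, 316206 to 337127 at 7 weeks), and 8 of the 9 tested cochlear markers fell (53787 to 54130 at 36 weeks, 215349 to 223543 at 7 weeks). Of the 2 tested erythroid markers of 3, 1 fell (7744 to 8720 at 36 weeks, 9434 to 9926 at 7 weeks), and none of 8 macrophage markers passed the test (19217 to 19975 at 36 weeks, 16714 to 17999 at 7 weeks). No marker was listed at 0 on any array. The part of these other tissues in the results below was not tested. In such bulk samples fewer cells of a type and less RNA per cell cannot be told apart.

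Most ribosomal protein genes had slightly lower signals at 36 weeks on the deposited scale, but few passed the test. Of the 45 tested, 12 fell (26.7%) and 2 rose (4.44%), by limma with a Benjamini-Hochberg adjusted p under 0.05, and 31 did not pass. Over all 13575 tested probe sets the same rule called 17.7% lower and 16.7% higher. The difference of 36 weeks minus 7 weeks was negative in 36 members and positive in 9. Its median over the members was -0.16 (log2), with quartiles of -0.28 and -0.04, whereas the median over all tested probe sets was 0.02 with quartiles of -0.30 and 0.34. All 3 arrays of 36 weeks lay below all 3 of 7 weeks in 16 members, against 24.1% of all tested probe sets, and above them in 2 members, against 23.7%. The signals overlapped between the ages in the other 27. For 29 further probe sets, the brightest of each ribosomal protein gene that has no member because its probe sets list several genes, 17 were called lower (58.6%) and 1 higher, with a median of -0.21. The share called lower among the members thus does not stand for all ribosomal protein genes on the array.

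The size of the members' difference and the balance of their calls depended on how the arrays were put on one scale. The median of the members was -0.16 as deposited, -0.26 when each array was centred on its median and -0.04 after quantile normalization, which gives every array the same distribution. Median centring moved the median of all tested probe sets to -0.08, and quantile normalization moved it to -0.01. After quantile normalization 6 members were called lower and 7 higher, against 17.8% and 15.6% of all tested probe sets. The 7 higher were Rplp0, Rps15, Rplp2, Rpl4, Rpl7a, Rps2 and Rps27l, and the 6 lower were all among the 12. After median centring 18 members were called lower and 1, Rplp0, higher, against 22.7% and 12.8% of all tested probe sets.

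On the deposited scale bright probe sets as a class were called lower more often than higher, and most members are bright. Above a mean signal of 10000, a limit chosen after the data were seen, 46.4% of 677 probe sets were called lower and 18% higher, with a median difference of -0.18. The 32 members above this limit had 10 called lower (31.2%) and 2 higher, with a median of -0.13. Of the 677 bright probe sets 555 named no ribosomal protein, and 47% of these were called lower. After quantile normalization 34.7% of the 677 were called lower and 25.7% higher, with a median of -0.05. On the deposited scale the share of members called lower was thus above that of all tested probe sets and below that of the bright ones.

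**Figure D1:**
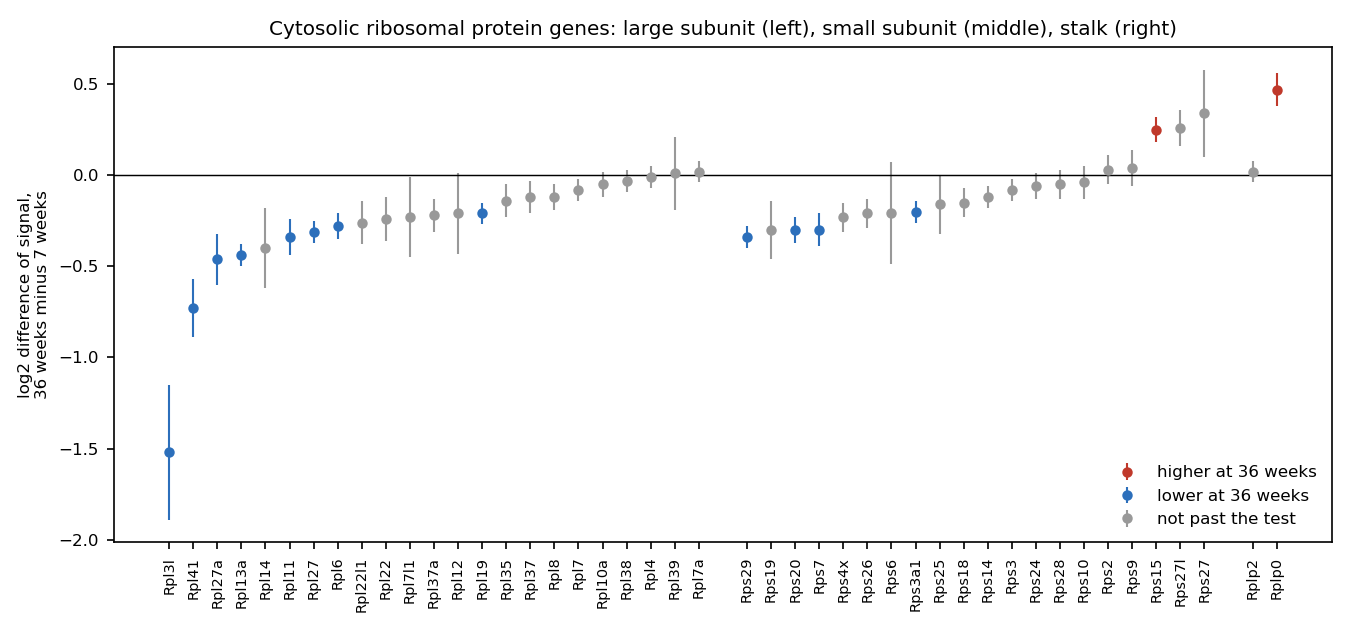
Log2 difference of signal, 36 weeks minus 7 weeks (vertical axis), for the 45 tested ribosomal protein genes, with the large subunit at the left, the small subunit in the middle and the stalk at the right; bars are 1 standard error and colours give the call. Most points lie a little below 0, with Rpl3l (-1.52) and Rpl41 (-0.73) lowest and Rplp0 (0.47) highest.

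The shift was small and ran through many members at once. For the 41 proteins proper, that is without the 6 tissue or sequence paralogs, each gene's deviation from its own mean had a median of -0.08, -0.08 and -0.07 (log2) on the 3 arrays of 36 weeks and of 0.08, 0.11 and 0.05 on the 3 arrays of 7 weeks. On the 36-week arrays 31, 30 and 31 of these 41 genes were below their own mean, against 12, 8 and 14 on the 7-week arrays. All 47 members together made up 2.06%, 2.03% and 2.09% of the summed signal at 36 weeks, against 2.28%, 2.37% and 2.22% at 7 weeks. The groups did not overlap in any of these 3 measures. Over all tested probe sets the median deviation was 0.02, 0.02 and 0.01 at 36 weeks and 0.02, -0.01 and 0.02 at 7 weeks. The 41 genes had a median difference of -0.15, against -0.18 for probe sets above a signal of 10000 that named no ribosomal protein. A shift of this size was thus not particular to ribosomal proteins. The counts and the share of summed signal were not computed for other probe sets. The median within-age SD of the tested members was 0.072 (log2) at 36 weeks and 0.114 at 7 weeks, against 0.162 at 36 weeks and 0.165 at 7 weeks over all tested probe sets. Most members are bright, and the SD of other probe sets of like brightness was not computed. Of the proteins proper, 19 of the small subunit gave 1 higher (5.26%) and 4 lower (21.1%) with a median of -0.15. The 20 of the large subunit gave none higher and 7 lower (35%) with a median of -0.21. Over all tested probe sets 17.7% were called lower and 16.7% higher, and of those above a signal of 10000 46.4% and 18%. The difference between the subunits was not tested.

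The annotated start sites show how far the members share the pyrimidine tract. The windows printed are those of both genes that rose, of genes that fell with and without a tract, and of a pair with a tract that did not pass. Each holds 10 bases before the annotated start and 20 from it, on the transcribed strand, from RefSeq for GRCm38.p6, with any tract in capitals.
Rplp0, chr5:115559457-115559486, plus strand: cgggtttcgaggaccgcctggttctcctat
Rps15, chr10:80292421-80292450, plus strand: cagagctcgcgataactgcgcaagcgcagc
Rpl41, chr10:128549149-128549178, minus strand: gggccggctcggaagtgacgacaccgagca
Rpl3l, chr17:24727816-24727845, plus strand: ttctagctctgtcatttgacctctggtgcc
Rpl11, chr4:136053374-136053403, minus strand: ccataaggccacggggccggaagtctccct
Rpl13a, chr7:45128726-45128755, minus strand: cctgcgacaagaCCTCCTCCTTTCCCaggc
Rpl27a, chr7:109519185-109519214, plus strand: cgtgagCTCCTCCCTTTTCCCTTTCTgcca
Rplp2, chr7:141447641-141447670, plus strand: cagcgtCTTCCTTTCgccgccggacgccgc
Rps18, chr17:33955646-33955675, minus strand: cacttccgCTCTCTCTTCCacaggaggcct
A tract was counted as a C followed by at least 4 pyrimidines, beginning within 5 bases of an annotated start, and a gene with several starts was counted if any had one. Of the 47 members 41 had an entry, and 20 of these (48.8%) held a tract, against 5718 of 27025 genes in the table (21.2%). A window without one says only that these letters are not at that annotated start.

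The stalk held the member with the largest rise. Rplp0, the protein that anchors the stalk to the large subunit and is often used as a constant control gene in expression assays, had signals of 21179, 22214 and 21464 at 36 weeks, against 16553, 17226 and 13263 at 7 weeks. Every 36-week array was above every 7-week array. Its mean was 21619 ± 534.3 at 36 weeks and 15681 ± 2121 at 7 weeks (SD, n = 3 each), a fold change of 1.38 and a log2 difference of 0.47 ± 0.09 (SE; limma, adjusted p = 0.00317). It was called higher in all 16 alternative settings tried, with differences of 0.36 to 0.63. Rplp2, an acidic protein that dimerises on the stalk, had signals of 32858, 32545 and 34080 at 36 weeks and 32214, 31601 and 34586 at 7 weeks. Its groups overlapped, and the difference was 0.02 ± 0.06 (SE; limma, adjusted p = 0.859).

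Rps15, a protein of the head of the small subunit, was the other gene that rose. Its signals were 28758, 29650 and 30364 at 36 weeks, against 24951, 27010 and 23015 at 7 weeks, without overlap. The difference was 0.25 ± 0.07 (SE; limma, adjusted p = 0.0206), and after median centring it was 0.14 and missed the threshold (adjusted p = 0.211). It kept its call in 9 of 16 alternative settings, and lost it without replicate 2 or replicate 3 of 36 weeks and without replicate 3 of 7 weeks (0.19 to 0.24). A less bright probe set of Rps15 read 16925, 16894 and 16663 at 36 weeks and 17404, 18394 and 16192 at 7 weeks. That probe set overlapped between the ages and had a difference of -0.04 (limma, adjusted p = 0.684), so the rise of Rps15 rests on 1 of its probe sets.

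**Figure D2:**
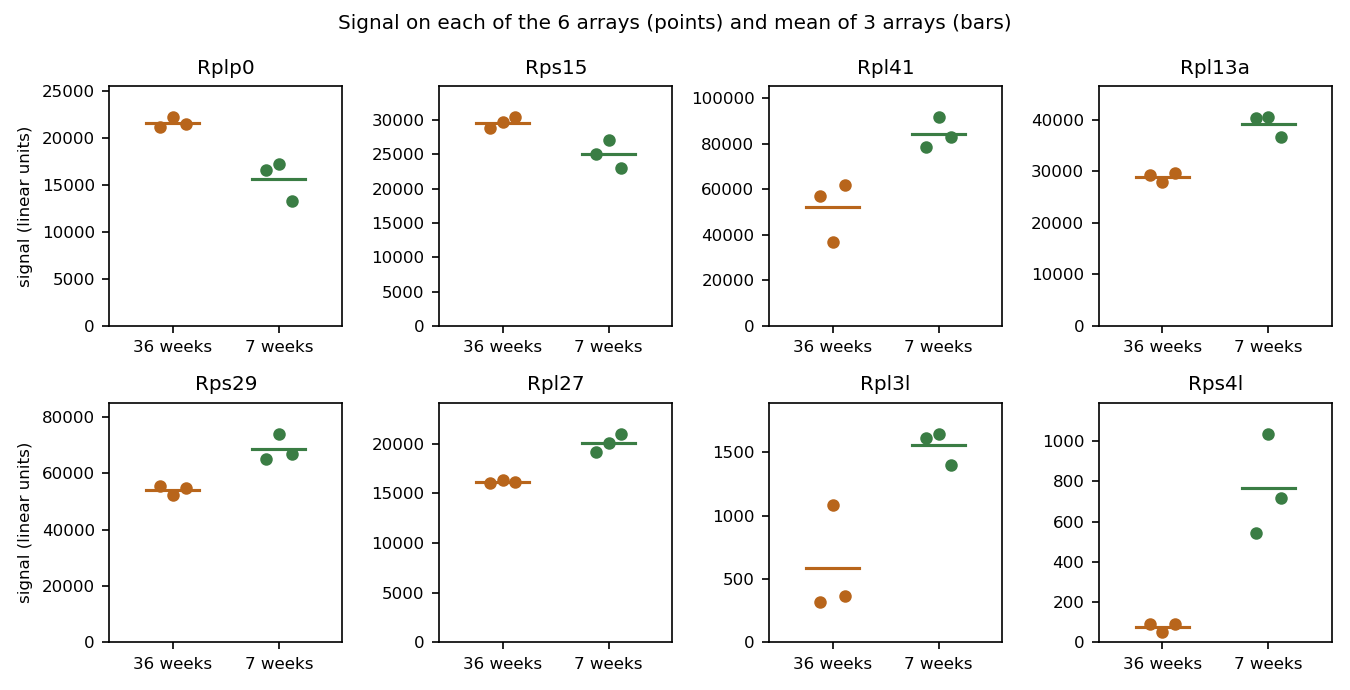
Deposited signal in linear units (vertical axis, from 0) of 8 ribosomal protein genes on each array (points), with the 36-week arrays left of the 7-week arrays and bars at the means of 3 arrays. Rplp0 and Rps15 are higher on every 36-week array, and Rpl41, Rpl13a, Rps29, Rpl27, Rpl3l and Rps4l are lower on every one.

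Among the large subunit proteins, Rpl41 and Rpl13a fell most after Rpl3l and Rpl27a are set aside. Rpl41, a very short, highly basic peptide at the boundary between the subunits, had signals of 57284, 36915 and 62045 at 36 weeks, against 78659, 91657 and 83170 at 7 weeks. The groups did not overlap, although the 36-week arrays were spread widely, with replicate 2 lowest. The mean was 52081 ± 13348 at 36 weeks and 84495 ± 6600 at 7 weeks (SD, n = 3 each), 0.616 of the 7-week level, with a log2 difference of -0.73 ± 0.16 (SE; limma, adjusted p = 0.00495). Its second probe set read 30141, 21155 and 24968 at 36 weeks and 28446, 67086 and 50774 at 7 weeks. This one was also called lower, with a difference of -0.87 ± 0.25 (SE; limma, adjusted p = 0.0213), but 1 array of 7 weeks lay below the highest of 36 weeks. Both probe sets carry the suffix x, which marks probes that can bind other transcripts.

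Rpl13a, which in human cells also has a role outside the ribosome in silencing inflammatory messages, had signals of 29310, 27869 and 29613 at 36 weeks, against 40405, 40501 and 36652 at 7 weeks. All 36-week arrays were well below all 7-week arrays, and the arrays of each age lay close together. The mean was 28931 ± 931.6 at 36 weeks and 39186 ± 2195 at 7 weeks (SD, n = 3 each), with a difference of -0.44 ± 0.06 (SE; limma, adjusted p = 0.000408). Its 3 other probe sets ranged up to 0.05 and none was called, so the mean over all its probe sets differed by -0.12 and missed the threshold.

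The remaining large subunit genes that fell did so by smaller steps. Rpl27, altered in rare cases of human Diamond-Blackfan anaemia, had signals of 16085, 16294 and 16108 at 36 weeks, against 19163, 20051 and 20991 at 7 weeks, a difference of -0.31 ± 0.06 (SE; limma, adjusted p = 0.0036). Rpl11, which with Rpl5 can bind the p53 regulator Mdm2 when ribosome assembly is disturbed, read 9464, 9372 and 10874 at 36 weeks, against 11893, 14315 and 11540 at 7 weeks (-0.34 ± 0.10, SE; limma, adjusted p = 0.0213). Rpl6 read 19399, 20603 and 21215 at 36 weeks, against 25555, 26314 and 22802 at 7 weeks (-0.28 ± 0.07, SE; limma, adjusted p = 0.0121). None of these 3 genes overlapped between the ages. Rpl19, which reaches across to the small subunit, read 24863, 25291 and 25433 at 36 weeks, against 28766, 29490 and 29429 at 7 weeks (-0.21 ± 0.06, SE; limma, adjusted p = 0.0135). Rpl27a was followed by a much dimmer probe set, with 1995, 1455 and 1920 at 36 weeks, against 2421, 2499 and 2467 at 7 weeks (-0.46 ± 0.14, SE; limma, adjusted p = 0.0251). Neither gene overlapped.

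Most of these calls depended on the setting. After quantile normalization Rpl27 differed by -0.13 (limma, adjusted p = 0.14), Rpl6 by -0.08 (0.335) and Rpl19 by -0.04 (0.648), and each kept its call in 13 of 16 settings. Rpl11 kept its call in 11 settings and lost it without replicate 1 or 2 of 36 weeks (-0.31 and -0.30) or replicate 2 of 7 weeks (-0.24). Rpl27a kept its call in 10 and lost it without replicate 2 of 36 weeks (-0.32) and without any 1 of the 7-week arrays (-0.47 to -0.45).

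In the small subunit, 4 genes fell. Rps29, a small zinc-binding protein of the subunit's head, had signals of 55553, 52421 and 54710 at 36 weeks, against 65240, 74028 and 66759 at 7 weeks. The ages did not overlap, and the difference was -0.34 ± 0.06 (SE; limma, adjusted p = 0.002). Rps20, also of the head, read 13915, 14079 and 14018 at 36 weeks, against 16877, 18874 and 16182 at 7 weeks (-0.30 ± 0.07, SE; limma, adjusted p = 0.00913). Rps7, needed for processing of small subunit RNA, read 23479, 24306 and 23910 at 36 weeks, against 34415, 25942 and 28451 at 7 weeks (-0.30 ± 0.09, SE; limma, adjusted p = 0.0305). In both genes the 36-week arrays were tightly grouped below a looser set of 7-week arrays. Rps3a1 read 28760, 29981 and 29658 at 36 weeks, against 34640, 33677 and 33402 at 7 weeks (-0.20 ± 0.06, SE; limma, adjusted p = 0.0176). The ages did not overlap in Rps3a1. After quantile normalization the differences were -0.14 in Rps20 (limma, adjusted p = 0.107), -0.12 in Rps7 (0.379) and -0.02 in Rps3a1 (0.778). Rps20 kept its call in 12 of 16 settings, Rps3a1 in 9 and Rps7 in 8. Leaving out any 36-week array or replicate 1 of 7 weeks ended the call of Rps7 (-0.31 to -0.18), and leaving out replicate 1 or 3 of 36 weeks or replicate 1 of 7 weeks ended that of Rps3a1 (-0.21 to -0.18).

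Several well-known small subunit proteins did not pass. Rps3, which lines the channel where the message enters, read 29179, 28799 and 29268 at 36 weeks and 30034, 31392 and 30880 at 7 weeks (-0.08 ± 0.06, SE; limma, adjusted p = 0.293). Rps14 read 41143, 39699 and 40206 at 36 weeks and 43301, 45725 and 42476 at 7 weeks (-0.12 ± 0.06, SE; limma, adjusted p = 0.13). In both genes the 36-week arrays were all below the 7-week arrays by a small margin. Another probe set of Rps14 read 24421, 26306 and 25819 at 36 weeks, against 30273, 35866 and 31055 at 7 weeks, and was called lower (-0.34 ± 0.07, SE; limma, adjusted p = 0.00543). Rps19, the gene most often altered in human Diamond-Blackfan anaemia, read 8494, 15112 and 11777 at 36 weeks and 13898, 13778 and 14812 at 7 weeks (-0.30 ± 0.16, SE; limma, adjusted p = 0.182). Rps4x read 28453, 28976 and 31363 at 36 weeks and 36371, 37533 and 30645 at 7 weeks (-0.23 ± 0.08, SE; limma, adjusted p = 0.0517). Both overlapped between the ages. After median centring the chosen probe set of Rps14 (-0.22; limma, adjusted p = 0.03) and Rps4x (-0.33; limma, adjusted p = 0.0182) were called lower. Rps6, the substrate of the S6 kinases, was represented by a dim probe set with 426.4, 667.8 and 657.3 at 36 weeks and 654.1, 571.7 and 807.5 at 7 weeks (-0.21 ± 0.28, SE; limma, adjusted p = 0.592), and its groups overlapped.

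The paralogs held the largest difference among the tested members. Rpl3l, the striated muscle form of Rpl3, had signals of 316.3, 1087 and 365.2 at 36 weeks, against 1612, 1646 and 1403 at 7 weeks. The groups did not overlap, but replicate 2 of 36 weeks was far above the other 2 of its age. The mean was 589.5 at 36 weeks and 1554 at 7 weeks, 0.379 of the 7-week level, with a difference of -1.52 ± 0.37 (SE; limma, adjusted p = 0.00892). The 36-week mean was below the limit of 593.6, so Rpl3l entered the test only through its 7-week signal. It was called lower in all 15 alternative settings in which it was tested, with differences of -2.04 to -1.22. The stricter filter at the 60th percentile, a signal of 1141.5, left it out. The skeletal muscle markers, all 12 lower, had a median difference of -1.62, and their part in the fall of Rpl3l was not tested.

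Rps4l, a paralog of Rps4x that the RefSeq table lists as a transcribed pseudogene, was below the signal limit of the test. It read 93.2, 49.5 and 91.0 at 36 weeks, against 544.8, 1036 and 715.1 at 7 weeks. All 36-week arrays were near the dim end of the array and all 7-week arrays far above them. Without the limit on dim probe sets its difference was -2.65 ± 0.37 (SE; limma, adjusted p = 0.00102) with 50 added to each signal and -3.29 with 1 added, so its size depends on that offset. Rpl39l, also below the limit, read 50.2, 70.6 and 71.5 at 36 weeks and 188.0, 41.8 and 34.6 at 7 weeks, with overlap. Rpl39 itself, whose product lines the exit tunnel of the large subunit, read 1900, 1295 and 2361 at 36 weeks and 1588, 1829 and 1974 at 7 weeks (0.01 ± 0.20, SE; limma, adjusted p = 0.983).

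In the other pairs of paralogs no gene passed the test. Rpl22 read 5670, 4907 and 4660 at 36 weeks and 7057, 5561 and 5450 at 7 weeks (-0.24 ± 0.12, SE; limma, adjusted p = 0.147). Its paralog Rpl22l1 read 7736, 7274 and 6218 at 36 weeks and 7538, 10050 and 7887 at 7 weeks (-0.26 ± 0.12, SE; limma, adjusted p = 0.129). Both had overlapping groups. Rps27 read 2210, 1212 and 2435 at 36 weeks and 1235, 1827 and 1398 at 7 weeks (0.34 ± 0.24, SE; limma, adjusted p = 0.315). Rps27l, a paralog induced by p53 in human cells, read 5523, 5314 and 6168 at 36 weeks and 4452, 5339 and 4419 at 7 weeks (0.26 ± 0.10, SE; limma, adjusted p = 0.0775). Both overlapped, Rps27l by a single pair of arrays.

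Probe sets of the same ribosomal protein often gave different readings. Of 22 members with several probe sets, 19 had more than 1 that was tested. None of these 19 had probe sets called in opposite directions, but in 10 the differences were of mixed sign. In 3 (Rpl41, Rps20 and Rps7) every tested probe set was called lower, in 9 some but not all were, and in 5 none was called either way. Rps10 ranged from -0.94 to 0.11 over 5 probe sets with 2 called lower, Rpl35 from -0.67 to 0.26 over 6 with 2 called lower, and Rps24 from -0.68 to 0.02 over 4 with 2 called lower. Rpl37a had the reverse, 1 probe set called higher at 2460, 2307 and 2205 at 36 weeks against 1800, 1519 and 1835 at 7 weeks (0.43; limma, adjusted p = 0.0219), beside a much brighter one at -0.22 that did not pass. Counted over all 82 tested probe sets of the members, 26 were called lower (31.7%) and 3 higher (3.66%), with a median of -0.16. Of the chosen probe sets 15 carried the suffix x and 1 the suffix s, which mark probes that can bind other transcripts, so signals from near copies cannot be separated there. Those of Rpl41, Rpl13a, Rps20 and Rps29, all called lower, were among the ones with x. Another 15 carried the suffix a, which marks several transcripts of the same gene. The 102 ribosomal probe sets that listed several genes also leaned to lower signals, with 40 of the 89 tested called lower (44.9%), 4 called higher (4.49%) and a median of -0.18. Over all tested probe sets 17.7% were called lower and 16.7% higher. Above a signal of 10000, whatever the gene, 46.4% were called lower with a median of -0.18.

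**Figure D3:**
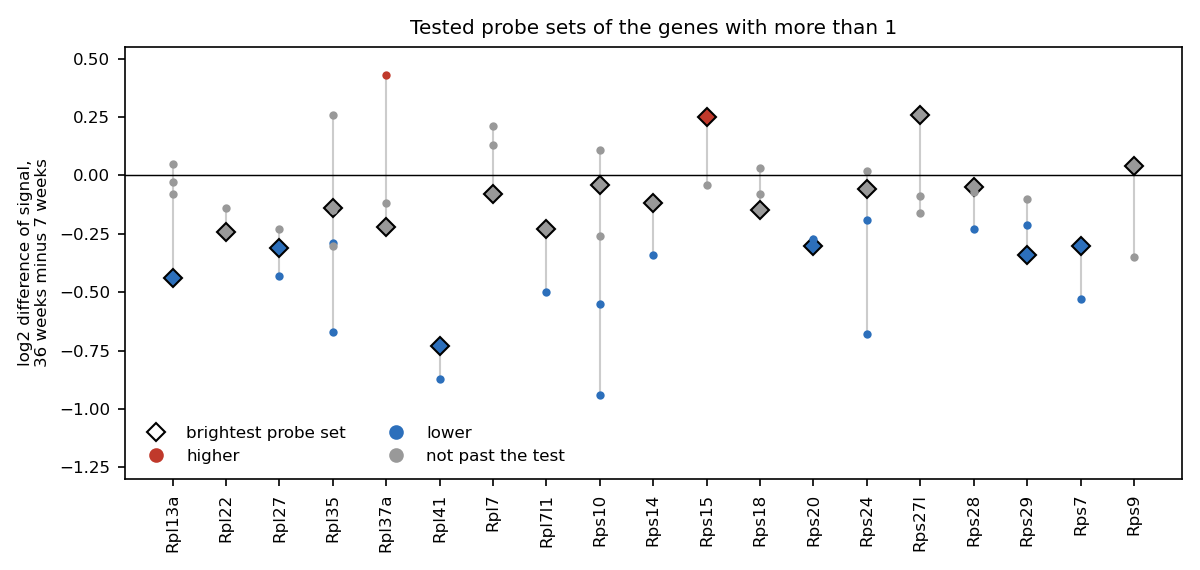
Log2 difference of signal, 36 weeks minus 7 weeks (vertical axis), for every tested probe set of the 19 genes that have more than 1, with a column per gene, diamonds for the brightest probe set and colours for the call. The probe sets of Rps10 run from -0.94 to 0.11 and those of Rpl13a from -0.44 to 0.05.

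The same scalings were followed gene by gene. Rplp0 was 0.37 higher after median centring, 0.63 after quantile normalization and 0.61 when each array was centred on the ribosomal proteins themselves. Rpl41 differed by -0.83, -0.95 and -0.59 in that order, Rpl13a by -0.54, -0.25 and -0.30, and Rpl3l by -1.62, -1.59 and -1.39, and each of these was called. Rps29 differed by -0.44 and -0.66 under the first pair of scalings, and at -0.20 missed the threshold when centred on the ribosomal proteins (adjusted p = 0.0936). Under this last centring 3 of the 45 genes were called higher and 3 lower. The scale was set by the median of the proteins proper, which holds their typical difference near 0 (median -0.02 over the 45). Few calls among them follow from that, so the shares of all tested probe sets are no fair comparison. Those shares were 20.7% higher and 10.1% lower, with a median of 0.15.

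**Figure D4:**
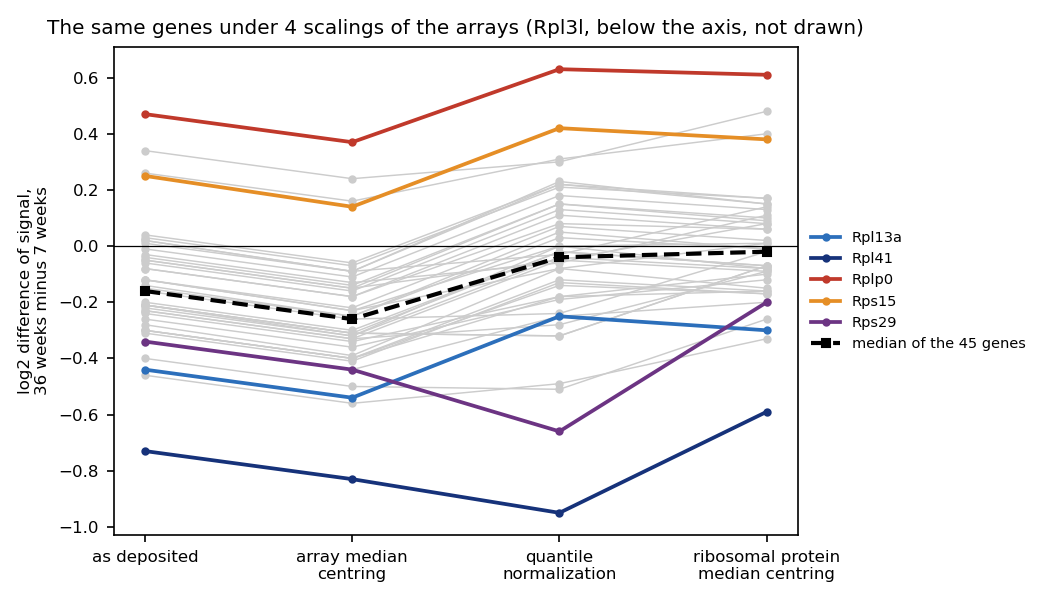
Log2 difference of signal, 36 weeks minus 7 weeks (vertical axis), of the members under 4 scalings of the arrays, with a line per gene, colours for 5 named genes and a dashed line for the median of the 45; Rpl3l, below the axis, is not drawn. The median is -0.16 as deposited, -0.26 after median centring and -0.04 after quantile normalization, while Rplp0 and Rps15 stay above 0 and Rpl41, Rpl13a and Rps29 below 0 in all 4.

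Among members with an annotated start, the pyrimidine tract was found in 3 of the 10 that fell (Rpl13a, Rpl19 and Rpl27a), in neither gene that rose, and in 17 of the 28 that did not pass (60.7%). The median difference was -0.10 over the 20 tested genes with a tract and -0.23 over the 20 without. Neither contrast was tested. In the 300 bases around the start, CCGGAAG, the core bound by ETS factors, stood on either strand in 20 of 41 members (48.8%) against 9.93% of all genes. AAGATGGC, the core bound by YY1, stood there in 4 members (9.76%) against 3.19% of all genes. By call, the ETS core stood in 7 of the 10 that fell (70%), in neither that rose and in 12 of the 28 that did not pass (42.9%). That split was not tested either.

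Genes that work with the ribosome were described from lists of the wider pathway. Of 18 tested genes listed as elongation factors or as messages with a pyrimidine tract, 7 fell (38.9%) and 1 rose (5.56%), with a median of -0.23. Over all tested probe sets the shares were 17.7% and 16.7%. Among the genes that fell, Eef2, Tpt1, Naca and Eif3f were above a mean signal of 10000, and Eef1d, Eif3e and Gas5 below it. Of all probe sets above that limit 46.4% were called lower. The tract itself was not looked for in these 18 genes. Eif3f, a subunit of the initiation factor eIF3, had signals of 12414, 12092 and 11597 at 36 weeks, against 17122, 17351 and 18357 at 7 weeks (-0.55 ± 0.07, SE; limma, adjusted p = 0.00012). Eef1d, part of the exchange factor for eEF1A, read 4381, 4648 and 4529 at 36 weeks, against 7677, 7344 and 6629 at 7 weeks (-0.67 ± 0.09, SE; limma, adjusted p = 0.000194). Both ages were tight and well apart in both genes, and Eif3e fell likewise by 0.55, whereas Eif3k rose by 0.31 (limma). Of 28 other initiation factors 5 fell (17.9%) and 1, Eif5a (0.23), rose (3.57%), with a median of -0.12. The share that fell was close to the 17.7% of all tested probe sets. With arrays centred on the ribosomal proteins, 3 of the 18 and 1 of the 28 were called lower, against 10.1% of all tested probe sets. Among the 28, Eif3m fell by 0.68 ± 0.15 (SE; limma, adjusted p = 0.00459), Eif2s3x by 0.32 and Eif4a1 by 0.46. After quantile normalization 2 of the 28 were called lower, against 17.8% of all tested probe sets, with a median of -0.04. The rises of Eif3k and Eif5a were both lost with median centring, without the intensity trend of the fit, and when replicate 2 or 3 of 36 weeks or replicate 1 or 2 of 7 weeks was left out. Eif3k's was also lost without replicate 1 of 36 weeks, and Eif5a's with no filter on dim probe sets.

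The signalling list that governs ribosome production moved in both directions. Of 12 tested genes of the TOR and S6 kinase list, 4 fell (33.3%) and 2 rose (16.7%), with a median of -0.18. Over all tested probe sets the shares were 17.7% and 16.7%. Ddit4, a stress-induced inhibitor of TOR complex 1, read 1557, 1761 and 1636 at 36 weeks, against 5036, 5935 and 5667 at 7 weeks. The groups were far apart, at 0.298 of the 7-week level (-1.72 ± 0.11, SE; limma, adjusted p = 9.63e-07). Rheb, which activates TOR complex 1, fell by 0.52 ± 0.09 (SE; limma, adjusted p = 0.00155), and Mlst8, a subunit of both TOR complexes, rose by 0.63 ± 0.13 (SE; limma, adjusted p = 0.00339).

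Ribosome assembly genes as a list had a median near 0. Of 35 tested, 3 fell (8.57%) and 1 rose (2.86%), against 17.7% and 16.7% of all tested probe sets, with a median of -0.01. Ncl, the nucleolar protein nucleolin, read 5544, 5365 and 5137 at 36 weeks, against 7587, 7645 and 7093 at 7 weeks (-0.47 ± 0.08, SE; limma, adjusted p = 0.0011). Its groups were well apart, and so were those of Nop10, a protein of the particles that modify ribosomal RNA, which fell by 0.40 ± 0.07 (SE; limma, adjusted p = 0.00174). Polr1d, a subunit of RNA polymerases I and III, rose by 0.54 ± 0.12 (SE; limma, adjusted p = 0.00673). Of 19 tested cytosolic tRNA ligases 1 fell (Iars, -0.55) and 2 rose (Vars, 0.50, and Wars, 0.41), or 5.26% and 10.5%, with a median of -0.08. After quantile normalization, as after median centring, 6 assembly genes were called lower and their median was -0.11. Of all tested probe sets 17.8% were called lower with quantile normalization and 22.7% with median centring. Of the ligases 4 were called lower and 1 higher after median centring, against 22.7% and 12.8% of all tested probe sets.

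The mitochondrial ribosome, which is built from separate proteins, gave 16 lower (21.6%) and none higher of 74 tested, against 17.7% and 16.7% of all tested probe sets, with a median of -0.14. Mrps6 read 3162, 2174 and 2272 at 36 weeks, against 5576, 5710 and 5760 at 7 weeks (-1.17 ± 0.14, SE), and Mrpl42 read 2026, 1891 and 2212 at 36 weeks, against 4047, 4231 and 3928 at 7 weeks (-0.98 ± 0.10, SE). Both fell without overlap (limma, adjusted p of 8.77e-05 and 4.97e-05 in that order), and Mrpl44 fell by 0.63 (limma, adjusted p = 0.000195). With arrays centred on the cytosolic ribosomal proteins, 8 of the 74 were called lower and 1 higher, against 10.1% and 20.7% of all tested probe sets. Of 2 ribosomal proteins whose symbols the rule does not cover, Fau, which is made as a fusion with a ubiquitin-like protein, read 29410, 35903 and 32536 at 36 weeks, against 24432, 27617 and 23682 at 7 weeks, and rose by 0.37 ± 0.09 (SE; limma, adjusted p = 0.00765), a call lost with median centring and without the intensity trend. Rpsa, the other, differed by 0.12 ± 0.07 (SE; limma, adjusted p = 0.187). Fau did not overlap between the ages.

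**Figure D5:**
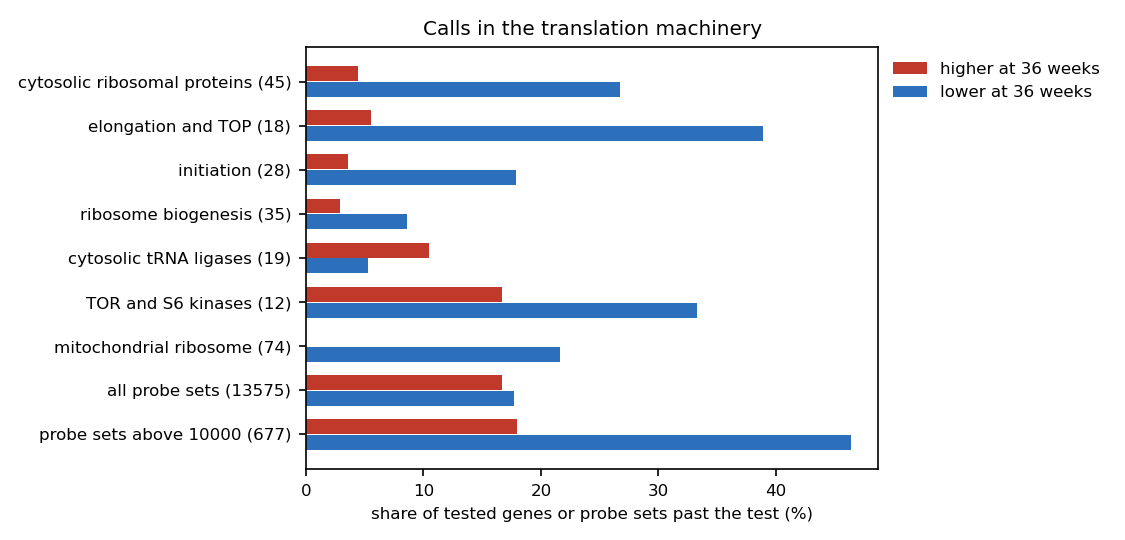
Share of tested genes or probe sets (horizontal axis, percent) called higher or lower at 36 weeks in the ribosomal proteins, in 6 lists of the translation pathway, in all tested probe sets and in those with a mean signal above 10000; the number tested stands in brackets. The ribosomal proteins have 26.7% lower and 4.44% higher, against 17.7% and 16.7% of all tested probe sets and 46.4% and 18% of the bright ones.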

How the data were processed

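Total RNA of each cochlea sample was labelled with biotin and hybridised to an Affymetrix array, per the labels' protocols. The authors deposited 1 table of linear intensity values for the 6 arrays; their summary and scaling steps are not given in the sources used here. To the deposited values 50 was added, log2 taken, and 36 weeks compared with 7 weeks without pairing, two-sided, with limma 3.58.1 (lmFit, eBayes with an intensity trend) in R 4.3.3. Probe sets with a mean above the 40th percentile (13575) were tested, with Benjamini-Hochberg adjustment over all of them. Of the probe sets, 20380 had 1 gene symbol, 691 several and 1555 none in the platform annotation, and 20351 matched RefSeq (GRCm38.p6) by gene number. The number of arrays limits the precision. The members and lists were chosen with earlier results of these data known.

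Genes named were up to 12 with the largest rise (2 passed) and up to 12 with the largest fall among members past the threshold, and fixed genes of the stalk, the paralog pairs and known roles. Alternatives were other offsets, filters, scalings, probe set rules, a fit without the trend, a block for replicate number, and each array left out. Signals of 3-prime and 5-prime control probe sets, a sign of RNA quality, were not analysed here. Figures were drawn with matplotlib 3.10.9.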

Additional observations from a re-analysis of the deposited data

How the results depend on the processing

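Among members 12 falls and 2 rises were counted also with offsets of 1 and 16 (median -0.17) and with the replicate block (12, 2 and -0.16). Of all tested probe sets 17.5% were called lower with either offset and 16.6% with the block, and 15.6% to 16.6% higher in these fits. No pairing by replicate number was seen: deviations from the age mean correlated at 0.049, -0.01 and -0.002 between same-numbered arrays. Differently numbered arrays gave -0.043 to 0.045. With 3 arrays per age these values cannot exclude a pairing. Leaving out each array gave 9 to 14 falls, 1 to 3 rises and medians of -0.19 to -0.13. In these fits 13.7% to 15.3% of all tested probe sets were called lower and 13.3% to 15% higher. The count of rises was 1 with median centring, with no filter, without the intensity trend and with the mean of a gene's probe sets, and 7 with quantile normalization and with probe sets of several genes included. Shares of all tested probe sets called higher were 12.8% with median centring, 9.56% with no filter and 15.3% without the trend. With the mean of a gene's probe sets 16.9% of all tested genes were called higher, and with quantile normalization 15.6% of probe sets. The count of falls was 6 without the intensity trend and 6 with quantile normalization, and 4 of 15 tested with plain probe sets alone. Without the trend 15.1% of all tested probe sets were called lower, and with quantile normalization 17.8%. Under alternatives chosen after seeing the data the count of falls was 26 of 82 with every member probe set and 66 of 171 with probe sets of several genes included. It was 3 with centring on the ribosomal proteins. The shares of all tested probe sets called lower were 17.7% as deposited and 10.1% with that centring. That centring itself holds the members' median near 0. The median was -0.26 with median centring and -0.04 with quantile normalization. Rps20 reversed to 0.13 with the mean of its probe sets (limma, adjusted p = 0.611). That mean also takes in probe sets too dim to be tested. Their differences were 0.86 and 0.23 in Rps20, 0.17 each in Rpl41 and 0.30 in Rpl27a, while the tested probe sets of these genes were all called lower. The cause of the changes under the other settings was not tested. Rplp0 kept its call in all 16 settings and Rpl3l in all 15 in which it was tested; Rpl41 and Rpl13a lost theirs only with the mean of a gene's probe sets, and Rps29 only with centring on the ribosomal proteins. The others were less stable: of 16 settings Rpl19, Rpl27 and Rpl6 kept their calls in 13 each, Rps20 in 12, Rpl11 in 11, Rpl27a in 10, Rps15 and Rps3a1 in 9 each and Rps7 in 8. With 3 arrays per age, an exact permutation test of a single value cannot give a two-sided p below 0.1. Levels are relative, so a change in total ribosomal message per cell was not measured.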
